A study of Mus musculus with 4 samples.

Results

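The genes described here are *Aplnr*, the receptor of apelin, and 9 further genes of the haemato-endothelial lineage, *Apln*, *Kdr*, *Flt1*, *Pdgfra*, *Tal1*, *Lmo2*, *Etv2*, *Cdh5* and *Pecam1*. These 10 genes were matched by symbol to the Ensembl identifiers of the raw count table, which lists 37620 genes. Of the members, 9 passed the expression filter of the authors, which kept 15462 genes, and *Etv2* did not. The set was chosen from measured values, because *Aplnr* is among the largest increases from serum/LIF to F/A in both genotypes, so the change of *Aplnr* between media is given as a description of the choice.

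RNA was sequenced from R1 mouse embryonic stem cells (ESCs) of strain 129/Sv, either wild type (WT) or lacking Cripto (Cripto KO), the membrane coreceptor of Nodal encoded by *Tdgf1*. Each genotype was taken in serum/LIF, the medium of naive ESCs, and after 6 days in F/A, which is N2B27 medium with bFGF and Activin A at 20 ng/ml, used to bring ESCs to the state of epiblast stem cells (EpiSCs). The comparisons ask how the ESC to EpiSC transition changes these genes and how the loss of Cripto changes their levels in each medium. The labels do not name the knockout clone that was sequenced. Every condition is 1 library, so there is no replicate error, no test was possible and no p-value is given. Each ratio of levels carries a 95% Clopper-Pearson interval, which covers counting error only.

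Apelin and its receptor, a G protein-coupled receptor that also binds the peptide Apela, act in gastrulating mesoderm and in growing vessels. *Kdr* (VEGFR2) is the main signalling receptor of VEGF and marks mesoderm that can give blood and endothelium, whereas *Flt1* (VEGFR1) binds VEGF tightly and can act as a decoy. *Pdgfra*, the PDGF receptor alpha, marks paraxial and other mesoderm and primitive endoderm. The ETS factor *Etv2* starts the haemato-endothelial programme, and the basic helix-loop-helix factor *Tal1* and its partner *Lmo2* act in the complex that specifies blood. *Cdh5* (VE-cadherin) and *Pecam1* (CD31) are junction proteins of endothelium, and *Pecam1* is also a known surface protein of naive ESCs.

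The libraries held 15230856 to 17315442 counts. Odd numbers made up 0.016% of the nonzero counts in the F/A library of Cripto KO cells, against 53.1% to 53.6% in the other 3, so its counts were divided by 2 for intervals and its detection limit was set at 6 counts against 3 elsewhere. *Tdgf1* stood at 1572 counts in WT F/A, 18714 in WT serum/LIF, 86 in Cripto KO F/A and 945 in Cripto KO serum/LIF, which left 5.29% (3.82% to 7.16%) of the WT level in F/A and 5.38% (5.03% to 5.74%) in serum/LIF. Of the 8 naive ESC markers that passed the filter, 8 were at least 2-fold lower in F/A in both genotypes. Of 7 EpiSC markers that passed, 7 were at least 2-fold higher in WT and 5 in Cripto KO, and 4 were at least 2-fold lower in Cripto KO than in WT in F/A. The general pluripotency genes, which EpiSCs are known to keep, went against the EpiSC label of the F/A libraries. In F/A *Pou5f1* was 13.1-fold lower in WT and 17.5-fold in Cripto KO, *Sox2* 18.1-fold and 16.4-fold, and *Nanog* 39.5-fold and 55.9-fold.

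The upstream sequences of the VEGF and PDGF receptors and of apelin are shown because, among the members, *Kdr* and *Pdgfra* were higher by similar amounts in Cripto KO F/A than in WT F/A (1.73-fold and 1.71-fold for *Pdgfra* and *Kdr*, under the 2-fold threshold) while *Flt1* and *Apln* were lower. The RefSeq promoter table for GRCm38.p6 held 6 of the 10 members. Each run is the 250 bases before the annotated start, 5′ to 3′ on the strand of the gene, and capitals mark matches to the motifs searched.
Kdr (chr5:75978456-75978705, minus strand): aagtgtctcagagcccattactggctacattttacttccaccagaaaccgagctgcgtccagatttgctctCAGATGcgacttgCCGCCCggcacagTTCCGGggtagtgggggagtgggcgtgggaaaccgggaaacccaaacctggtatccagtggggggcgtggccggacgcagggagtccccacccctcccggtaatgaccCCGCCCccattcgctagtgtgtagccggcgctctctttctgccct
Pdgfra (chr5:75152001-75152250, plus strand): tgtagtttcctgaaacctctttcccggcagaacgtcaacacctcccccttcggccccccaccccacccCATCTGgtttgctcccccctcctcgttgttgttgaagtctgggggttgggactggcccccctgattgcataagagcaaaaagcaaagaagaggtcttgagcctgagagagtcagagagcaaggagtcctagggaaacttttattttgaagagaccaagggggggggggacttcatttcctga
Flt1 (chr5:147726012-147726261, minus strand): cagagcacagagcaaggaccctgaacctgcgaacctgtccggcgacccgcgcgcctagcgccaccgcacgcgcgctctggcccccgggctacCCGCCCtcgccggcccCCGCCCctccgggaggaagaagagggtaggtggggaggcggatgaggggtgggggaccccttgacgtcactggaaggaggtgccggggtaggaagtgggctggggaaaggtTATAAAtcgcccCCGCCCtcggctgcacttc
Apln (chrX:48034854-48035103, minus strand): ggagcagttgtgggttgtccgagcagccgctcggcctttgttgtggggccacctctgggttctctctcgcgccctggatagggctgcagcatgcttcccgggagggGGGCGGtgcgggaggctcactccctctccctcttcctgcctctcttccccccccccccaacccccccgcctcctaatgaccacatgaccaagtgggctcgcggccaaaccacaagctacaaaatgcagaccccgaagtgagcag

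The motifs were searched on both strands in the 32536 distinct upstream windows of the table. They were the GATA motif AGATAA (in 9.97% of all windows), the ETS motif CCGGAA (12.1%), the T-box motif AGGTGTGA (1.12%), the Smad palindrome GTCTAGAC (0.169%), the E-box CAGATG bound by TAL1 complexes (14.4%), the TATA box TATAAA (12.3%) and the GC box GGGCGG (33.0%). The *Kdr* window held 1 ETS motif, 1 E-box and 2 GC boxes, and the *Pdgfra* window held 1 E-box and no other match. The *Flt1* window held 1 TATA box and 3 GC boxes, and the *Apln* window held 1 GC box. GC content was 61.6% for *Kdr*, 54.4% for *Pdgfra*, 70.4% for *Flt1* and 65.2% for *Apln*, against a median of 52.4% over all windows. *Flt1* had 23 CpG dinucleotides, *Kdr* 16, *Apln* 12 and *Pdgfra* 4, against a median of 6. Of the members not shown, *Tal1* had 2 windows, with 1 GATA motif in one, 3 GC boxes in the other and 0 E-boxes in both, and the *Etv2* window held none of the motifs. A match is a description of the letters, not a binding site.

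Levels are raw counts scaled to the library total (cpm), and a gene was called higher or lower at a fold of at least 2, with values under the detection limit set to it. From serum/LIF to F/A in WT, 7 of the 10 members were called higher and 2 lower, against 22.3% of all filtered genes called higher and 20.1% lower. In Cripto KO 8 members, *Etv2* from outside the filter among them, were called higher and 1 lower, against 20.4% and 18.8% of all filtered genes. These shares describe a set chosen on this contrast. *Aplnr*, *Apln*, *Kdr*, *Flt1*, *Pdgfra*, *Lmo2* and *Cdh5* were called higher in both genotypes, *Pecam1* was called lower in both, *Tal1* was called lower in WT alone and *Etv2* higher in Cripto KO alone. On the log2 scale the members had a median change of 3.92 (WT) and 4.36 (Cripto KO), against -0.03 over all genes in each. In these bulk libraries, a change in the number of cells that express a gene and a change in RNA per cell cannot be told apart.

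**Figure D1:**
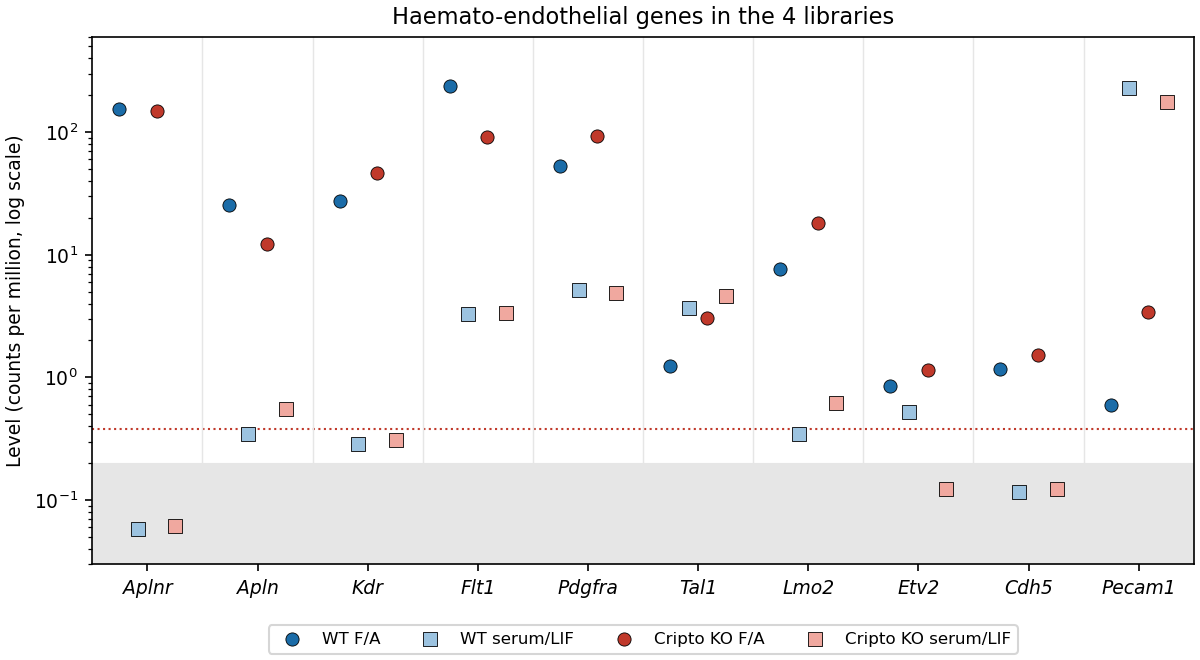
Level of each member in the 4 libraries (cpm, log scale), with circles for F/A, squares for serum/LIF, blue for WT and red for Cripto KO, 1 library per point. The grey band lies under the detection limit of the 3 libraries with a limit of 3 counts, and the dotted line is the limit of Cripto KO F/A; *Aplnr* and *Cdh5* lie in the band in both serum/LIF libraries, *Etv2* lies in it in Cripto KO serum/LIF, and *Pecam1* runs opposite to the receptors.

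The apelin receptor went from under the detection limit to well above the level of the median gene. *Aplnr* had 2358 counts in WT F/A, 1 in WT serum/LIF, 2354 in Cripto KO F/A and 1 in Cripto KO serum/LIF. Both F/A libraries were high and both serum/LIF libraries were under the limit. With 1 count in serum/LIF, the ratio was 2681 (481 to 105928) in WT and 2432 (436 to 96130) in Cripto KO. Of the genes with a fold, *Aplnr* ranked 3 of 15450 in WT and 2 of 15423 in Cripto KO from the highest. The genotypes were alike in F/A within narrow counting limits, with a Cripto KO to WT ratio of 0.966 (0.900 to 1.04). Per kilobase of transcript, *Aplnr* in F/A lay above 78.0% of all filtered genes in WT and 77.0% in Cripto KO.

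Its ligand did not follow it across genotypes. *Apln* had 390 counts in WT F/A, 6 in WT serum/LIF, 194 in Cripto KO F/A and 9 in Cripto KO serum/LIF. It was high in both F/A libraries, 73.9-fold (33.6 to 203) above serum/LIF in WT and 22.3-fold (11.3 to 50.2) in Cripto KO, and in F/A Cripto KO cells had 0.481 (0.381 to 0.603) of the WT level. The ratio of *Apln* to *Aplnr* in F/A was 2.01-fold lower in Cripto KO than in WT (1.58 to 2.56), a value that does not depend on library scaling or transcript length. *Apela*, the other ligand of the receptor, had 542, 253, 728 and 169 counts in the order WT F/A, WT serum/LIF, Cripto KO F/A and Cripto KO serum/LIF, and its level in Cripto KO F/A was above that in WT by 0.38 on the log2 scale, under the 2-fold threshold. That same order of libraries is used wherever 4 counts are listed from here on.

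The VEGF receptors parted between genotypes. *Flt1* had 3646 counts in WT F/A, 57 in WT serum/LIF, 1446 in Cripto KO F/A and 55 in Cripto KO serum/LIF. Its serum/LIF libraries were alike (ratio 1.03, 0.696 to 1.52), and its F/A level was 72.7-fold (56.0 to 96.2) higher than in serum/LIF in WT and 27.2-fold (20.6 to 36.4) in Cripto KO. In F/A Cripto KO cells had 0.384 (0.354 to 0.416) of the WT level of *Flt1*. *Kdr* had 417, 5, 738 and 5 counts, and was near the limit in both serum/LIF libraries and high in both F/A libraries. It was 94.8-fold (40.3 to 294) higher in F/A in WT and 152-fold (64.8 to 472) in Cripto KO. Opposite to *Flt1*, *Kdr* was 1.71-fold (1.48 to 1.97) higher in Cripto KO than in WT in F/A, a difference beyond counting error but under the 2-fold threshold. The ratio of *Flt1* to *Kdr* in F/A was therefore 4.46-fold (3.78 to 5.26) lower in Cripto KO, and in serum/LIF the corresponding change of 1.04-fold had an interval of 0.225 to 4.77.

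Of the further vascular ligands, 11 of 12 listed genes passed the filter, and 5 were called higher and 3 lower in F/A in WT, 4 higher and 1 lower in Cripto KO. For this and each later list, the shares of all filtered genes were 22.3% higher and 20.1% lower in WT. In Cripto KO they were 20.4% and 18.8%. *Vegfa*, the main ligand of *Kdr* and *Flt1*, had 5792, 2092, 4310 and 2362 counts, higher in F/A by 1.65 (WT) and 0.91 (Cripto KO) on the log2 scale. In F/A Cripto KO cells had 0.720 (0.685 to 0.757) of the WT level of *Vegfa*. That difference was under the 2-fold threshold, in the direction of *Flt1* and opposite to *Kdr*. *Pgf*, a ligand of *Flt1* and not of *Kdr*, had 167, 14, 244 and 3 counts, so that it was high in both F/A libraries and its genotypes differed by a log2 of 0.50 there, under the threshold and in the direction opposite to *Flt1*. *Pdgfc*, a ligand of *Pdgfra*, had 133, 1110, 130 and 1460 counts, 7.34-fold lower in F/A in WT and 10.9-fold lower in Cripto KO, opposite to its receptor, whereas *Pdgfb*, which also binds it, had 507, 170, 590 and 182 and was called higher in both genotypes. *Vegfc*, a ligand of *Flt4* and *Kdr*, had 36, 254, 98 and 149 counts and was called lower in F/A in WT and higher in Cripto KO than in WT in F/A (2.63-fold, 1.68 to 4.17). Of the 8 further receptors, all 8 passed, and 4 were called higher and 0 lower in Cripto KO F/A against WT F/A. Of all filtered genes, 3.36% were called higher and 5.8% lower there. *Pdgfrb*, the second PDGF receptor, had 280, 178, 872 and 159 counts and was the one of these with at least 50 counts, 3.01-fold (2.59 to 3.51) higher in Cripto KO. *Tie1* (3 and 20 counts in WT and Cripto KO F/A), *Tek* (16 and 40) and *Acvrl1* (18 and 40) were called at few counts. The VEGF coreceptor *Nrp1* had 589, 76, 1074 and 113 counts and was called higher in F/A in both genotypes. The angiopoietin receptor *Tek* (16, 285, 40 and 254 counts) and the TGFβ coreceptor *Eng* (51, 814, 60 and 667 counts) ran the other way and were called lower in F/A in both.

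*Pdgfra* had the smallest fold gain of the 4 member receptors in both genotypes, and the highest serum/LIF level (cpm) of the 4. It had 812 counts in WT F/A, 89 in WT serum/LIF, 1452 in Cripto KO F/A and 79 in Cripto KO serum/LIF. The F/A level was 10.4-fold (8.33 to 13.1) above serum/LIF in WT and 19.0-fold (15.0 to 24.3) in Cripto KO. The latter interval overlapped that of *Flt1* in Cripto KO (20.6 to 36.4). In F/A Cripto KO cells had 1.73-fold (1.56 to 1.91) the WT level, close to the 1.71-fold of *Kdr*. The ratio of *Kdr* to *Pdgfra* in F/A differed between genotypes by a factor of 0.990 (0.830 to 1.18).

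*Pdgfra* and *Kdr* lie on chromosome 5, with 734.6 kb between them, and *Kit*, the receptor of stem cell factor, is the annotated protein-coding gene between them (NCBIM37, *Pdgfra* at chr5:75548316-75594229, *Kit* at chr5:75970941-76052747, *Kdr* at chr5:76328852-76374483). *Kit* had 740, 1974, 346 and 981 counts. It was called lower in F/A in both genotypes (log2 -1.23 in WT and -1.46 in Cripto KO) and had 0.452 (0.381 to 0.535) of the WT level in Cripto KO F/A, opposite in each case to the 2 receptor genes on either side. In serum/LIF *Kit* was already at 0.529 (0.490 to 0.572) of the WT level in Cripto KO, whereas *Pdgfra* and *Kdr* had intervals that include 1 there. Of the 19 nearest filtered neighbours of the 10 members, 3 were called higher and 2 lower in F/A in WT, 3 and 1 in Cripto KO, not more often than among all filtered genes (22.3% and 20.1% in WT, 20.4% and 18.8% in Cripto KO). The 3 called higher in both genotypes were *Lrrc55* beside *Aplnr* (28, 2, 18 and 0 counts), *Xpnpep2* beside *Apln* (43, 13, 34 and 3 counts) and *Pdzk1ip1* beside *Tal1* (62, 2, 86 and 3 counts), named after their values were seen.

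Among the transcription factors, *Lmo2* gained while *Tal1* and *Etv2* stayed at low counts. *Lmo2* had 117 counts in WT F/A, 6 in WT serum/LIF, 286 in Cripto KO F/A and 10 in Cripto KO serum/LIF. It was 22.2-fold (9.88 to 61.6) higher in F/A in WT and 29.5-fold (15.6 to 62.9) in Cripto KO, and in F/A it was 2.37-fold (1.84 to 3.05) higher in Cripto KO than in WT. *Tal1* had 19, 64, 48 and 75 counts, lowest in WT F/A and highest in Cripto KO serum/LIF. Its F/A level was 0.338 (0.191 to 0.571) of serum/LIF in WT and 0.661 (0.399 to 1.06) in Cripto KO, and in F/A it was 2.44-fold (1.28 to 4.72) higher in Cripto KO. The ratio of *Tal1* to *Lmo2* in F/A differed between genotypes by a factor of 1.03 (0.514 to 2.10), a wide interval. *Etv2* had 13, 9, 18 and 2 counts. Its F/A to serum/LIF ratio was 1.64 (0.649 to 4.35) in WT and 9.30 (1.92 to 88.4) in Cripto KO, and the genotypes in F/A were not told apart at this depth (1.34, 0.505 to 3.39). Reads of *Lmo2* share a locus, but no exonic bases, with the antisense gene *4931422A03Rik*, and whether reads were counted by strand is not given in the sources used here.

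The partners of TAL1 and LMO2 showed no common direction. Of 6 listed, 5 passed the filter, and 1 was called higher and 2 lower in F/A in WT, 2 higher and 1 lower in Cripto KO. *Ldb1*, the bridging factor, had 2301, 3761, 2998 and 4425 counts (log2 -0.52 in WT, -0.51 in Cripto KO), and *Tcf12*, an E protein, had 3097, 923, 2750 and 811 (log2 1.93 and 1.81). *Gata2*, a GATA factor of early blood, had 41, 98, 136 and 164 counts and was 3.21-fold (2.15 to 4.85) higher in Cripto KO than in WT in F/A. *Gata1*, the erythroid GATA factor, had 6, 31, 0 and 23 counts.

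Of the 20 other haemato-endothelial transcription factors, 13 passed, and 6 were called higher and 4 lower in F/A in WT, 5 higher and 3 lower in Cripto KO. The largest increases were those of *Foxc1* (759, 25, 1156 and 29 counts), *Ets1* (1051, 62, 1432 and 65 counts) and *Foxc2* (169, 16, 984 and 15 counts), which are active in many mesoderm derivatives. *Foxc2* was 5.63-fold (4.72 to 6.75) higher in Cripto KO than in WT in F/A. *Runx1*, a regulator of blood formation, had 476, 66, 230 and 65 counts and *Hhex*, active in endoderm and endothelium, 369, 95, 134 and 80. Both were called lower in Cripto KO than in WT in F/A, at 0.468 (0.378 to 0.574) and 0.351 (0.267 to 0.457) of the WT level. In that comparison the passing list had 2 genes called higher and 4 called lower, so its members did not move one way.

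The endothelial junction genes ran in opposite directions. *Cdh5* had 18 counts in WT F/A, 2 in WT serum/LIF, 24 in Cripto KO F/A and 2 in Cripto KO serum/LIF, a ratio of F/A to serum/LIF of 10.2 (2.45 to 90.9) in WT and 12.4 (2.76 to 114) in Cripto KO. Even in F/A it lay above no more than 5.96% of genes per kilobase in WT and 7.88% in Cripto KO. *Pecam1* had 9, 3952, 54 and 2859 counts, high in both serum/LIF libraries and low in both F/A libraries. It was 386-fold (203 to 845) lower in F/A in WT and 51.3-fold (35.2 to 77.9) lower in Cripto KO. In F/A Cripto KO cells had 5.81-fold (2.65 to 14.0) the WT level of *Pecam1*, whereas in serum/LIF they had 0.770 (0.734 to 0.809) of it. *Pecam1* thus followed the naive ESC markers between media and not the receptors.

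Other endothelial proteins gave a mixed picture, with 12 of 16 passing the filter. In F/A, 3 were called higher and 5 lower in WT, and 4 higher and 5 lower in Cripto KO, with medians of -0.47 and -0.74 on the log2 scale. Of all filtered genes, 22.3% were called higher and 20.1% lower in WT, and 20.4% and 18.8% in Cripto KO. Of all 16, 4 in WT F/A and 3 in Cripto KO F/A were at or under the detection limit. *Emcn* was at 0 in every library, *Clec14a* had 1 and 2 counts in WT and Cripto KO F/A, and *Icam2* 1 and 2. *Cldn5*, with 3 and 10 counts, was at the limit in WT F/A and above it in Cripto KO F/A. Others were well detected in F/A, such as *Mcam* with 511 and 854 counts and *Egfl7* with 276 and 414. *Cd93* had 47 counts in WT F/A and 8 in Cripto KO F/A, just above the limit of 6 counts there. It was called lower in Cripto KO than in WT in F/A (6.07-fold, 2.22 to 23.2). *Ecscr*, an endothelial surface protein, had 187, 38, 238 and 19 counts and was called higher in F/A in both genotypes, while *Cd34* (6, 136, 20 and 103) and *Nos3* (11, 99, 14 and 140) were called lower in both. *Vwf* had 243, 469, 80 and 363 counts, 0.319 (0.222 to 0.446) of WT in Cripto KO F/A. Of 12 blood cell markers, 6 passed the filter, and 1 was called higher and 2 lower in F/A in each genotype. *Itgam*, a myeloid integrin, had 2, 152, 2 and 118 counts, and *Csf1r* (145 and 130 counts in WT and Cripto KO F/A), *Epor* (93 and 110), *Itga2b* (76 and 46) and *Kit* were detected in F/A. In each F/A library 6 of the 12 were at 0. The embryonic globins *Hbb-bh1*, *Hba-x* and *Hbb-y* were at 0 in every library, and *Ptprc*, the pan-leukocyte antigen, was at 0 in both F/A libraries.

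**Figure D2:**
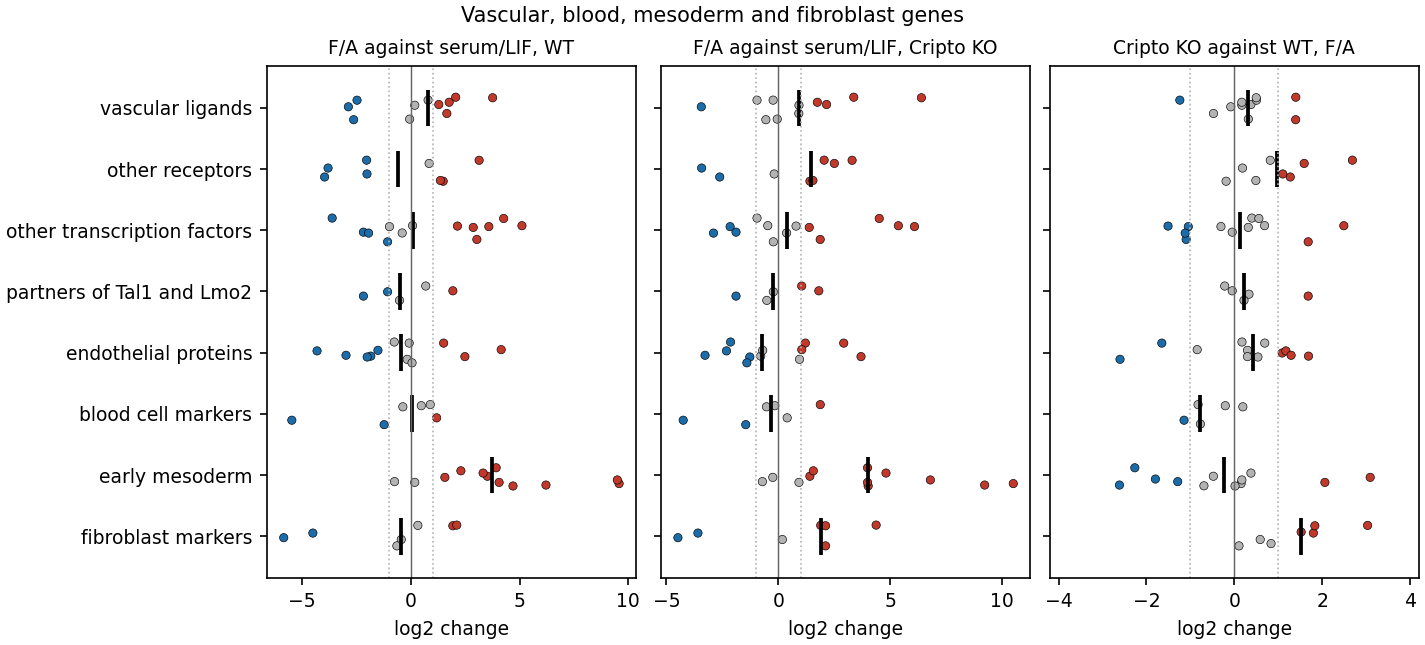
Log2 differences of the filtered genes of 8 lists between F/A and serum/LIF (WT, then Cripto KO) and between genotypes in F/A, 1 point per gene above the detection limit in the higher library, with red for at least 2-fold higher, blue for at least 2-fold lower and the black bar at the list median; points are spread vertically for legibility. Early mesoderm genes lie to the right in both transitions (medians 3.72 and 3.99), endothelial and blood genes lie on both sides of 0, and the fibroblast markers lie to the right between genotypes (median 1.52).

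In F/A, 3 members were called higher in Cripto KO than in WT (*Tal1*, *Lmo2* and *Pecam1*) and 2 lower (*Apln* and *Flt1*), against 3.36% of all genes called higher and 5.8% lower. The intervals of *Kdr* and *Pdgfra* also lay wholly above 1, so that 5 members were higher and 2 lower beyond counting error. The remaining 3, *Aplnr*, *Etv2* and *Cdh5*, had intervals that include 1, narrow for *Aplnr* and wide for the other two. When the whole interval had to lie past 2-fold, *Pecam1* alone was higher and *Flt1* alone lower. In serum/LIF 0 members were called higher and 1 lower, against 1.47% and 2.87% of all genes. The 1 was *Etv2*, which is outside the filtered genes of these shares, with 2 counts against 9. Its ratio of 0.237 had an interval of 0.0249 to 1.14, and *Pecam1* was the only member whose interval excluded 1. The ratio was 1.60 (0.508 to 5.45) for *Apln*, 1.77 (0.584 to 5.94) for *Lmo2* and 1.06 (0.245 to 4.63) for *Kdr*, all at 10 counts or fewer. It was 0.945 (0.689 to 1.29) for *Pdgfra*, 1.25 (0.882 to 1.77) for *Tal1* and 1.03 (0.696 to 1.52) for *Flt1*, while *Aplnr* and *Cdh5* were under the detection limit in both libraries.

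**Figure D3:**
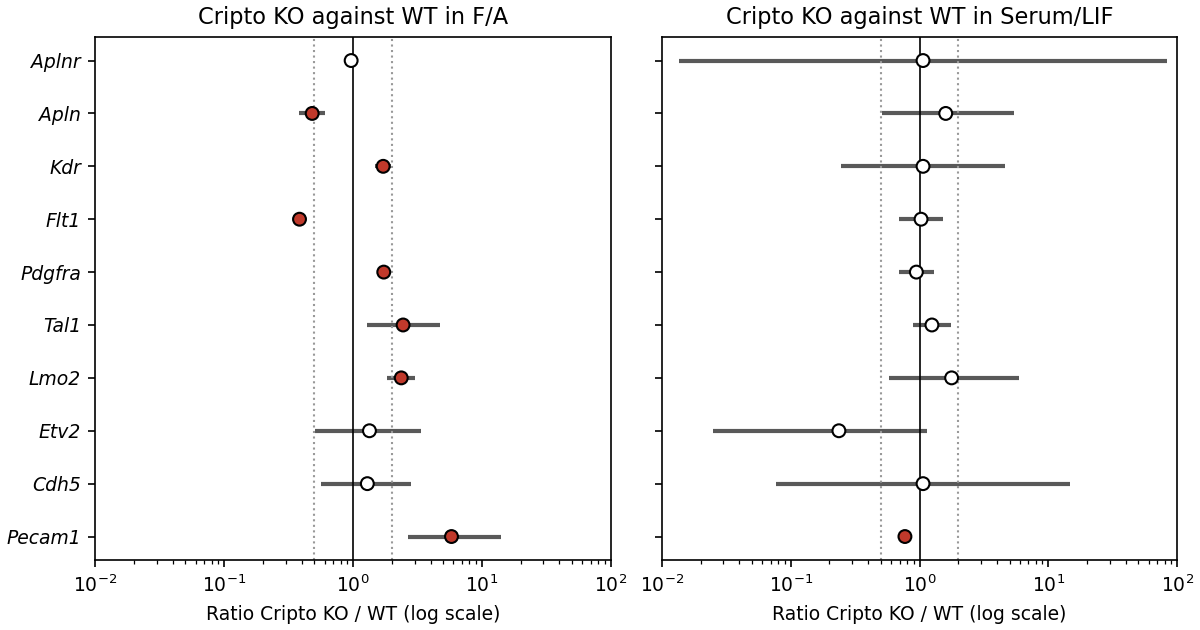
Ratio of Cripto KO to WT for each member in F/A (left) and in serum/LIF (right) on a log scale, with 95% counting intervals as lines, filled points where the interval excludes 1 and dotted lines at 2-fold. In F/A, *Flt1* and *Apln* lie to the left of 1 and *Kdr*, *Pdgfra*, *Tal1*, *Lmo2* and *Pecam1* to the right, and in serum/LIF the interval of *Pecam1* alone excludes 1.

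The transitions of both genotypes were then set against each other as a ratio of ratios, each with an exact conditional interval from the 4 counts. They share no library, and the difference rests on 1 library per condition. For *Flt1* the fold in Cripto KO was 0.373 (0.251 to 0.556) of that in WT, and for *Apln* 0.301 (0.0865 to 0.979). For *Pdgfra* it was 1.83-fold (1.31 to 2.55) that in WT, and for *Pecam1* the decrease was 7.54-fold (3.43 to 18.2) smaller. For the other 6 members the interval included 1. That of *Kdr*, 1.61 (0.367 to 7.05), was wide because of 5 counts in each serum/LIF library, and that of *Aplnr*, 0.907 (0.0116 to 71.3), because of 1.

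**Figure D4:**
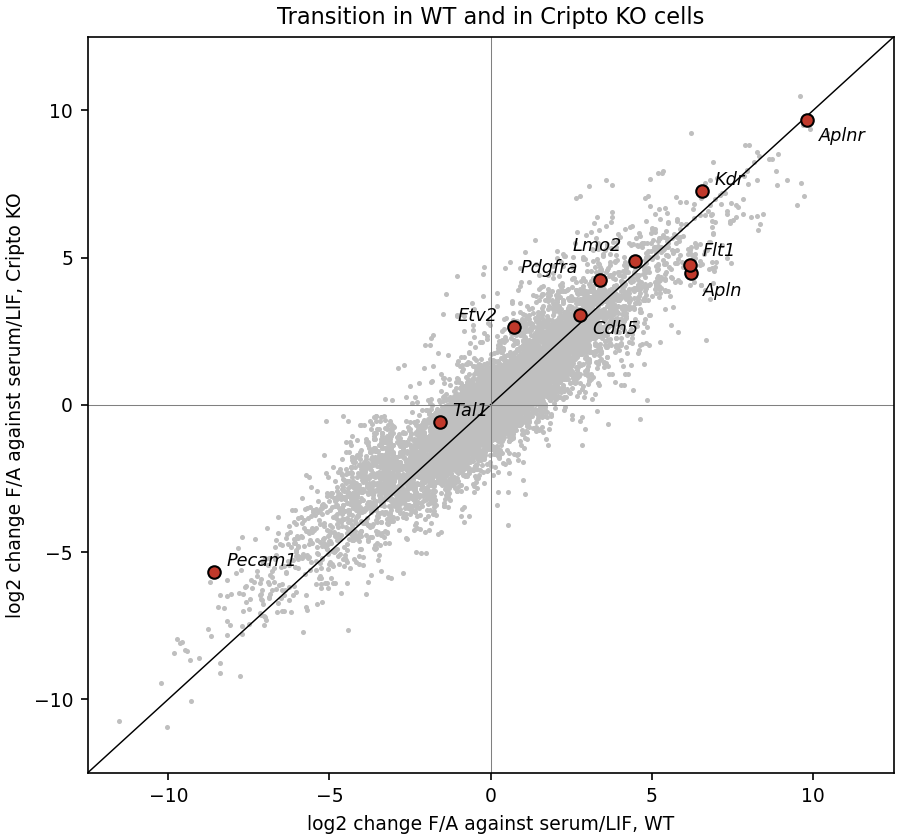
Log2 difference between F/A and serum/LIF, for WT (horizontal axis) and Cripto KO (vertical axis), for all filtered genes with a fold in both (grey) and the 10 members (red), with values under the detection limit set to it; the line marks equal changes. *Aplnr* lies near the line at the upper end, *Flt1* and *Apln* lie below it, and *Pecam1* lies above it at the lower end.

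Levels of different genes can be compared per kilobase of transcript (RPKM, from the median annotated transcript length). In WT F/A the order was *Flt1* (117), *Aplnr* (43.5), *Apln* (8.13), *Pdgfra* (8.13), *Kdr* (6.28), *Lmo2* (5.19), *Etv2* (0.666), *Tal1* (0.378), *Cdh5* (0.296) and *Pecam1* (0.197). In Cripto KO F/A it was *Flt1* (44.8), *Aplnr* (42.0), *Pdgfra* (14.1), *Lmo2* (12.3), *Kdr* (10.8), *Apln* (3.91), *Pecam1* (1.14), *Tal1* (0.924), *Etv2* (0.893) and *Cdh5* (0.383). *Apln* thus stood in place 3 in WT and in place 6 in Cripto KO. The first place of *Flt1* depends on the length used, since its annotated transcripts have a median of 2049 bases and a longest of 6895. With the longest transcript *Flt1* had 34.7 in WT and 13.3 in Cripto KO, below *Aplnr* in both. The places of members below 1 rest on 9 to 48 counts, and *Apln* and *Pdgfra* in WT had the same value to 3 digits. In serum/LIF *Pecam1* came first (76.0 in WT and 58.6 in Cripto KO), every other member was under 2, and *Aplnr* came last (0.0162 and 0.0173).

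Among 12788 filtered genes with a mean of at least 50 counts, those whose pattern over the 4 libraries lay closest to that of *Aplnr*, by the root mean square distance of centred log2 levels, were *Shh* (2921, 4, 2108 and 0 counts, distance 0.231), *Igf2* (18608, 22, 30974 and 49, distance 0.487) and *Fgf8* (1256, 2, 1066 and 2, distance 0.520). They encode signalling proteins of the early embryo. Closest to *Kdr* were *Bmp5* (253, 1, 432 and 0, distance 0.0189), *Tagln* (8595, 106, 13504 and 106, distance 0.0877), a smooth muscle actin-binding protein, and *Leprel1* (545, 5, 742 and 6, distance 0.166). *Kdr* itself was in place 44 of the genes closest to *Aplnr*, *Flt1* in place 150 and *Apln* in place 168. These distances rest on 4 libraries that share their scaling, with values under the detection limit set to it. *Aplnr*, *Fgf8* and *Bmp5* were under the limit in both serum/LIF libraries. Their distances, the small one of *Bmp5* to *Kdr* among them, therefore depend on the limit chosen.

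Markers of other cell types moved in the same comparison as the members. Early mesoderm genes were high in F/A in both genotypes, with 10 of 12 called higher in WT and 9 in Cripto KO, among them *T* (8748, 13, 5598 and 4 counts). Between genotypes in F/A, *Hand1* (196 and 1730 counts in WT and Cripto KO; 8.54-fold, 7.31 to 10.02) and *Foxf1a* (44 and 190; 4.18-fold, 2.89 to 6.12), genes of lateral and extraembryonic mesoderm, were called higher in Cripto KO, as *Lmo2* was. *Lhx1* (1909 and 322), *Eomes* (1963 and 422), *Mixl1* (121 and 36) and *Tbx6* (52 and 22) were called lower, as *Flt1* and *Apln* were. Of 7 fibroblast markers that passed, 4 were called higher in Cripto KO F/A than in WT F/A and 0 lower, against 3.36% and 5.8% of all filtered genes. The 4 were *Col3a1* (8.20-fold, 6.32 to 10.8), *Twist2* (3.56-fold, 2.37 to 5.44), *Dcn* (3.48-fold, 1.05 to 13.2, at 5 and 18 counts) and *Col1a1* (2.87-fold, 2.56 to 3.22). *Lum* had 5 and 4 counts. The list summed to 75.0 cpm in WT F/A, 116 in WT serum/LIF, 199 in Cripto KO F/A and 123 in Cripto KO serum/LIF. From serum/LIF to F/A, 2 were called higher and 2 lower in WT, and 4 higher and 2 lower in Cripto KO. The 2 called lower were *Thy1* (18, 466, 28 and 349 counts) and *Dcn* (5, 328, 18 and 417) in both genotypes. The part of fibroblast-like cells in the higher *Pdgfra* and *Lmo2* of Cripto KO F/A was not tested.

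*Pdgfra* also marks primitive endoderm and *Flt1* is expressed in trophoblast, and markers of both were measured. Of 10 primitive endoderm markers that passed, 6 were called higher in F/A in each genotype, and between genotypes in F/A 0 were higher and 3 lower. Their summed level was 369 cpm in WT F/A, 169 in WT serum/LIF, 368 in Cripto KO F/A and 188 in Cripto KO serum/LIF. *Gata6* (465, 18, 798 and 6 counts), *Gata4* (831, 65, 1356 and 48) and *Foxa2* (1360, 5, 900 and 11), which also mark definitive endoderm or mesoderm, were high in both F/A libraries. *Sox17* (688, 10, 270 and 9) was too, at 0.380 of the WT level in Cripto KO F/A. In F/A *Gata6* was 1.66-fold (1.45 to 1.90) and *Gata4* 1.58-fold (1.42 to 1.75) higher in Cripto KO. Both intervals lay above 1 and under the 2-fold threshold, as that of *Pdgfra* did. *Foxa2* went the other way, at 0.640 (0.574 to 0.713) of the WT level. *Dab2*, which the authors use to label primitive endoderm, did not follow *Pdgfra*. It had 609 and 590 counts in WT and Cripto KO F/A, at 0.937 (0.813 to 1.08) of the WT level. *Pth1r* (286 and 296 counts) did not follow either, with an interval of 0.816 to 1.23. *Lama1* was 1.14-fold (1.05 to 1.25) higher in Cripto KO F/A. Of the 3 called lower, *Sox7* (20 and 10 counts in WT and Cripto KO F/A) and *Cubn* (45 and 16) rest on few counts. *Afp* was at 0 in every library. Of 7 trophoblast markers that passed, 2 were called higher and 1 lower in Cripto KO F/A than in WT F/A. *Cdx2* (104 and 674 counts, 6.27-fold, 5.02 to 7.89) was the largest. The other called higher was the placental gene *Plac1* (19 and 48 counts, 2.44-fold, 1.28 to 4.72), and *Ascl2* (31 and 10 counts) was called lower. The further placental genes *Tpbpa* and *Prl3d1* were at 0 in every library, and *Elf5* had 2 counts in WT F/A and 0 in Cripto KO F/A. Summed trophoblast levels were 84.0 cpm in WT F/A, 81.8 in WT serum/LIF, 124 in Cripto KO F/A and 48.7 in Cripto KO serum/LIF, and most of the difference between the F/A libraries was *Cdx2* (6.83 against 42.8 cpm). The authors asked whether Cdx2 labelled posterior mesoderm, and found most Cdx2-positive cells without Brachyury. By immunostaining they also found Gata3 in Cdx2-positive cells and no Oct4. They further reported higher trophoblast genes in Cripto KO cells under trophoblast stem cell culture. In chimeric blastocysts they saw Cripto KO cells in the trophectoderm, but later chimeric embryos showed no extraembryonic contribution. *Hand1*, which the authors also name for trophoblast, was listed under early mesoderm. It is not in this sum (12.9 and 110 cpm in WT and Cripto KO F/A). In bulk RNA, which does not show what single cells express together, *Krt7* (769 and 802 counts) and *Gata3* (238 and 252) were alike in F/A. Their part in the levels of *Pdgfra* and *Flt1* was not tested.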

How the data were processed

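RNA-seq of 4 cultures, 1 library each, was used. The submitters' processing notes name CASAVA, TopHat2 2.0.13 and HTSeq 0.6.1p1. The authors aligned paired-end reads to mm9 (NCBIM37) and deposited raw counts per gene, and they deposited a signal made from these counts, full quantile-normalized values of the genes kept by their NOISeq filter. Whether reads were counted by strand is not given in the sources used here. Each column was assigned by its name, and 0 columns were left without a sample.

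Symbols, coordinates and transcript lengths came from the GENCODE annotation of NCBIM37, which named 98.9% of the identifiers, and 128 of 128 listed genes were matched through it and RefSeq synonyms. Where a symbol had several identifiers, that of the longest transcript was used, and *Pou3f1* had 0 counts under it. Counts were scaled by library totals with scipy 1.17.1, numpy 2.4.6 and pandas 2.3.3 under Python 3.11.15. A detection limit of 3 counts (6 in Cripto KO F/A) and a fold of at least 2 defined calls, because *Etv2* has no normalized value and counting intervals belong to raw counts. The simulated NOISeq probability of the authors was not used. The scaling and calls were tested on simulated data. The alternatives were the quantile-normalized values, TMM factors of edgeR 4.0.16, size factors of DESeq2 1.42.0, a pseudocount of 0.5 cpm, filters, thresholds and transcript lengths, and, added after seeing the data, a limit of 3 counts in every library.

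The members and gene lists were chosen with earlier results of these data known. All 10 members are named in every comparison. The rule for listed genes was to name those called with at least 50 counts, at most 4 per list and comparison, largest change first. It was not followed in full. Some genes it selects in the naive ESC, EpiSC and other lists are given in counts alone, and listed genes outside it, such as those at or near 0 counts, *Apela*, *Ldb1*, *Mcam*, *Csf1r*, *Mixl1* and *Dcn*, were chosen after their values were seen. The 3 genes most like *Aplnr* and *Kdr* are named.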

Additional observations from a re-analysis of the deposited data

Results flagged for a closer look

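*Pecam1* differed between genotypes in opposite directions in the 2 media. Cripto KO cells had 5.81-fold the WT level in F/A (54 against 9 counts) and 0.770 of the WT level in serum/LIF (2859 against 3952 counts). Each medium gives 1 ratio, from 1 library of each genotype, and the difference was not tested against replicate error.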

How the results depend on the processing

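The 24 called member values in the 4 comparisons kept their direction under each scaling or filter that gave a value. *Etv2* had none with the quantile-normalized values or a mean of at least 50 counts, and *Cdh5* none with the latter. *Aplnr* between genotypes in F/A (-0.05 to 0.02 on the log2 scale) and *Pdgfra* between genotypes in serum/LIF (-0.08 to 0.03), which were not called, changed sign near 0. The 8 members called higher in Cripto KO F/A against serum/LIF became 7 with the quantile-normalized values and with the whole interval past 2-fold, without *Etv2*, and 6 with a mean of at least 50 counts. With a fold of at least 3, the members called lower in WT F/A were 1 in place of 2, those called higher in Cripto KO F/A against WT F/A were 1 in place of 3, those called lower there were 0 in place of 2, and those called lower in serum/LIF were 0 in place of 1. With the whole counting interval past 2-fold these became 1, 1, 1 and 0. The call of *Etv2* in serum/LIF was also lost (0 members lower) with 0.5 cpm added, with a mean of at least 50 counts, and with the quantile-normalized values, where *Etv2* has no value. Under the latter 1 member, *Lmo2*, was called higher in serum/LIF in place of 0. TMM factors, DESeq2 size factors, protein-coding genes only and a limit of 3 counts in every library moved no count of members by over 1.5 times.

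Depth limits *Aplnr*, *Kdr*, *Cdh5*, *Etv2* and *Apln* in serum/LIF, where counts of 1 to 9 leave wide intervals. No paired analysis was possible because each condition has 1 library. Leaving out a replicate was not possible for the same reason.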
